A study of Homo sapiens with 16 samples.

Results

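The genes described here are 8 components of the pathway that runs from phosphoinositide 3-kinase (PI3K) through Akt to mTOR and the FOXO transcription factors. They are PIK3CA, PIK3CB, PIK3R1, AKT1, AKT2, MTOR, FOXO1 and FOXO3, chosen by name and found among the 60649 genes of the deposited count table through GENCODE. All 8 passed the filter on low counts, which kept 19103 genes.

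Poly(A)-enriched RNA was sequenced from ASC52telo, a line of human adipose mesenchymal stem cells (MSCs) immortalized with telomerase, in 16 libraries. Senescent MSCs (MmC+) had been exposed for 18 h to 1.5 µg/mL mitomycin C (MmC), a DNA alkylating agent, and "young" MSCs (MmC-) had not. Recombinant growth differentiation factor 11 (GDF11), a cytokine of the TGF-beta family, was added to 10 ng/mL in the GDF11+ groups and left out in the GDF11- groups, and all cells were collected after 10 days. Young MSCs formed the groups MmC-/GDF11- and MmC-/GDF11+ and senescent MSCs the groups MmC+/GDF11- and MmC+/GDF11+, each with 4 biological replicates, all of this line and grown in serum-containing medium. The model is therefore a single immortalized line, and the cells are called "young" only because MmC was left out. Serum holds growth factors that can act on this pathway, and their action was not measured.

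Class IA PI3K is a pair of a catalytic subunit (such as PIK3CA or PIK3CB) and a regulatory subunit (such as PIK3R1) that growth factor receptors recruit to the membrane. Its lipid product brings Akt to the membrane, where PDPK1 and mTORC2 phosphorylate it, and active Akt relieves the brake that the TSC complex puts on mTORC1, the kinase complex that drives protein synthesis and restrains autophagy. Akt also phosphorylates FOXO1 and FOXO3, which then leave the nucleus. All of this control acts on proteins, so the transcript levels measured here do not show the activity of any of these kinases or factors.

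The 250 bases before the RefSeq start sites (GRCh38.p14, identical to hg38 here) were matched by symbol for all 8 genes and are printed for AKT1, MTOR and FOXO3, because these genes changed after MmC as described next. AKT2 changed too, but 139 bases of its window are annotated in GENCODE as exon, so it is not printed. AKT1 lies on chromosome 14, minus strand (chr14:104795749-104795998), MTOR on chromosome 1, minus strand (chr1:11262552-11262801), and FOXO3 on chromosome 6, plus strand (chr6:108559575-108559824). Each is written 5′ to 3′ along its gene, with matches to the GC box (GGGCGG on either strand) in capitals.
AKT1: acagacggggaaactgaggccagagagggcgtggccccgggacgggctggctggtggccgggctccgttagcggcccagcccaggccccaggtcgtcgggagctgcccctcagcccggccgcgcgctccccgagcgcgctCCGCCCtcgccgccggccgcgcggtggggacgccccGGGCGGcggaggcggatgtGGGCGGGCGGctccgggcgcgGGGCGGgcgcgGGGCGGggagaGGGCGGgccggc
MTOR: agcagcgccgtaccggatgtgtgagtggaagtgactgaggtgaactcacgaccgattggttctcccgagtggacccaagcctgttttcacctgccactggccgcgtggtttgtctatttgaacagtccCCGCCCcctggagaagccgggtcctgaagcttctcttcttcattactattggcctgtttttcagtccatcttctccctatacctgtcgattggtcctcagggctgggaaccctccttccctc
FOXO3: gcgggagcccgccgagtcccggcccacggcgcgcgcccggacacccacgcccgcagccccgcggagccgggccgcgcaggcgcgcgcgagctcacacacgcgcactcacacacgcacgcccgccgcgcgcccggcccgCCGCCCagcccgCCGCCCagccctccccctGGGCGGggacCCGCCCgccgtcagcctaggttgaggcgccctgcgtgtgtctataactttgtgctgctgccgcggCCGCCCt
The window of AKT1 held 7 GC box matches, 2 of them overlapping, that of FOXO3 held 5, that of AKT2 held 4 and that of MTOR held 1. Matches to a GC box were present in the windows of all 8 genes and in 42.6% of 35116 RefSeq windows of the same length. The FOXO core motif GTAAACA, also searched on both strands, was present in the window of PIK3CA and not in the other 7, against 2.98% of all windows. That match lies at -149 to -143 from the RefSeq start site but after the GENCODE start of the gene. Of the PIK3CA window, 106 bases are annotated in GENCODE as exon. Neither the E-box CACGTG (6.34% of windows) nor the E2F sites TTTCGCGC and TTTGGCGC (0.968%) matched in any of the 8 windows. These are matches of letters in short windows and show no binding. RefSeq lists between 1 and 4 start sites for these genes, and the one nearest to the GENCODE gene start was used.

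After MmC, FOXO3 and MTOR were higher and AKT1 and AKT2 lower, with and without GDF11, and neither PIK3CA, PIK3CB, PIK3R1 nor FOXO1 passed the test in either comparison. Levels are given as TMM-normalized CPM, the unit in which counts are scaled to library size after the libraries were put on a common scale. In edgeR's quasi-likelihood test with Benjamini-Hochberg adjustment over 19103 genes, 4 of 8 members passed an adjusted p of 0.05 without GDF11, 2 higher and 2 lower. Of all genes tested, 45.3% passed in this comparison, 22.9% higher and 22.4% lower. With GDF11 again 4 of 8 passed, 2 higher and 2 lower, where 46.7% of all genes passed, 23.4% higher and 23.3% lower. The share of members that passed thus lies near the share of all genes. The 4 MmC+ and 4 MmC- libraries did not overlap for 3 members in each comparison, against 37.3% of all genes without and 41.5% with GDF11. The median log2 fold change of all genes was -0.01 in both comparisons. TMM scaling centers the log ratios of most genes, so this median cannot show whether RNA as a whole shifted.

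**Figure D1:**
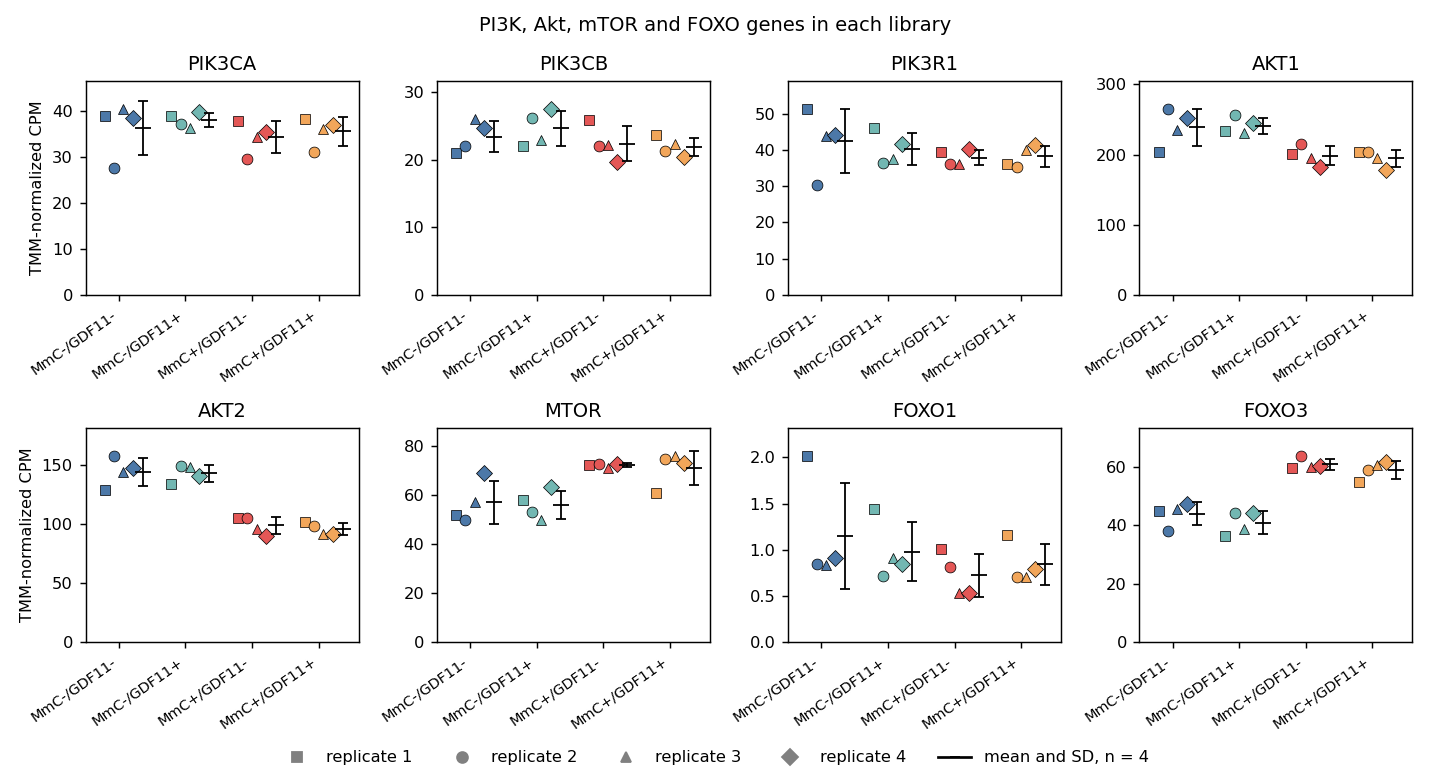
TMM-normalized CPM (vertical axes from 0, each gene on its own scale) of the 8 genes in the 16 libraries, by group on the horizontal axes. Marker shapes give the replicate number, and bars the mean and SD of 4 libraries. AKT2 and FOXO3 separate MmC+ from MmC- libraries completely, and FOXO1 lies at or below 2.01 CPM throughout.

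AKT2 (ENSG00000105221.18, chromosome 19 of hg38 from 40230317 to 40285536), the Akt isoform best known for insulin-stimulated glucose uptake, fell in both comparisons. Its CPM in replicates 1 to 4 was 129, 157, 144 and 147 in MmC-/GDF11- and 105, 105, 95.5 and 90.1 in MmC+/GDF11-. With GDF11 it was 134, 149, 148 and 141 in MmC-/GDF11+ and 101, 97.9, 91.7 and 91.5 in MmC+/GDF11+. Every MmC+ library lay below every MmC- library. The group mean fell from 144 ± 11.9 to 98.8 ± 7.19 CPM (SD, n = 4) in the absence of GDF11, a difference of -0.55 on the log2 scale (standard error, SE, 0.0812, adjusted p = 6.49e-05). With GDF11 the log2 fold change was -0.58 (SE 0.0813, adjusted p = 3.83e-05). In percent, AKT2 fell by 31.5% without and by 33.0% with GDF11.

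AKT1 (ENSG00000142208.18, chromosome 14 from 104769349 to 104795751), the most broadly expressed Akt isoform and linked to growth and survival, fell too. Replicates 1 to 4 had 203, 265, 235 and 252 CPM in MmC-/GDF11-, against 201, 215, 196 and 182 in MmC+/GDF11-. These groups overlapped, since replicate 1 of MmC-/GDF11- lay within the range of MmC+/GDF11-. With GDF11 the values were 233, 255.8, 230 and 245 CPM in MmC-/GDF11+, against 203, 203, 195 and 178 in MmC+/GDF11+, without overlap. The log2 fold change was -0.27 without GDF11 (SE 0.0911, adjusted p = 0.0253) and -0.31 with it (SE 0.0911, adjusted p = 0.0112), so AKT1 fell by 16.9% and by 19.2%. The call without GDF11 is not firm. It was lost when only the 8 libraries compared were fitted (log2 fold change -0.25, adjusted p = 0.105), when no filter was used (-0.27, adjusted p = 0.0740), and when replicate 2 (-0.20, adjusted p = 0.0873) or replicate 4 (-0.23, adjusted p = 0.0742) of MmC-/GDF11- or replicate 3 (-0.26, adjusted p = 0.0596) or replicate 4 (-0.22, adjusted p = 0.0918) of MmC+/GDF11- was left out. With GDF11 it was lost without replicate 4 of MmC+/GDF11+ (-0.25, adjusted p = 0.0520). A gene on the other strand, ENSG00000258430, overlaps 6.05% of the exonic sequence of AKT1 and had 9 to 52 counts per library, against 14854 to 28536 for AKT1.

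MTOR (ENSG00000198793.13, chromosome 1 from 11106535 to 11262556) encodes the kinase of both mTOR complexes and rose after MmC. Its CPM in replicates 1 to 4 was 52.0, 49.6, 57.2 and 68.9 in MmC-/GDF11- and 72.2, 72.7, 71.0 and 72.6 in MmC+/GDF11-. The MmC+/GDF11- libraries lay within a narrow band, with a coefficient of variation of 1.08% against 15.1% in MmC-/GDF11-, and all 4 lay above the highest MmC-/GDF11- library. With GDF11 the values were 57.8, 53.2, 49.7 and 63.2 CPM in MmC-/GDF11+ and 60.9, 74.6, 75.9 and 72.9 in MmC+/GDF11+, where replicate 1 of MmC+/GDF11+ fell below the highest MmC-/GDF11+ library. The log2 fold change was 0.34 without GDF11 (SE 0.106, adjusted p = 0.0151) and 0.34 with it (SE 0.106, adjusted p = 0.0140), a rise of 26.7% and of 27.0%.

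FOXO3 (ENSG00000118689.15, chromosome 6 from 108559835 to 108684774), a transcription factor of stress resistance, autophagy and cell cycle arrest, rose by 38.6% without and by 44.2% with GDF11. In replicates 1 to 4 it had 45.1, 38.2, 45.6 and 47.2 CPM in MmC-/GDF11- and 59.8, 63.8, 59.9 and 60.5 in MmC+/GDF11-. With GDF11 it had 36.5, 44.1, 38.9 and 44.4 CPM in MmC-/GDF11+ and 54.9, 59.0, 60.8 and 61.7 in MmC+/GDF11+. Each MmC+ library lay above each MmC- library. The log2 fold change was 0.47 (SE 0.0850, adjusted p = 0.000341) without GDF11 and 0.53 (SE 0.0851, adjusted p = 0.000128) with GDF11. By words of 31 bases, 61.4% of the exonic sequence of FOXO3 also occurs elsewhere in the genome, most of it on chromosome 17, where its near-copy FOXO3B lies. Reads of FOXO3 could thus be counted on either gene or on neither. FOXO3B had between 6.08 and 14.4 CPM and did not pass the test, with a log2 fold change of -0.14 (adjusted p = 0.659) without and -0.17 (adjusted p = 0.591) with GDF11. With the counts of both genes summed, FOXO3 still passed, at 0.37 (SE 0.1002, adjusted p = 0.00635) without and 0.41 (SE 0.1003, adjusted p = 0.00326) with GDF11.

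FOXO1 (ENSG00000150907.10, chromosome 13 from 40555667 to 40666641), the FOXO factor best known for insulin-regulated metabolism, had the largest fitted difference without GDF11 and the widest error. It had 46 to 155 raw counts per library. In replicates 1 to 4 it lay at 2.01, 0.849, 0.839 and 0.906 CPM in MmC-/GDF11- and at 1.01, 0.816, 0.536 and 0.529 in MmC+/GDF11-. The log2 fold change without GDF11 was -0.66 (SE 0.323, 95% interval -1.35 to 0.02, adjusted p = 0.105). Replicate 1 of MmC-/GDF11- carried much of that difference, and without it the value was -0.24 (adjusted p = 0.512). The study does not say whether replicate numbers pair cultures. Same-numbered libraries of these groups deviated together from their group means, at correlations of 0.113 to 0.368, and the fit above leaves the number out. The call of FOXO1 without GDF11 depends on that choice. With the number as a block FOXO1 passed the test (log2 fold change -0.62, SE 0.174, adjusted p = 0.00711), where 57.9% of all genes passed. With GDF11 it had 1.45, 0.711, 0.908 and 0.849 CPM in MmC-/GDF11+ and 1.16, 0.702, 0.709 and 0.790 in MmC+/GDF11+. The groups overlapped, and the log2 fold change was -0.22 (SE 0.322, adjusted p = 0.597). Replicate 1 was the highest library for FOXO1 in each of the 4 groups. The lncRNA ENSG00000288542 covers 22.7% of the exonic sequence of FOXO1 on the same strand and had 0 counts in all 16 libraries. Reads in the shared part could have been counted on neither gene, so these counts do not show that FOXO1 lost no reads.

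The 3 PI3K subunits did not pass the test after MmC, and the 95% intervals of their log2 fold changes lay between -0.43 and 0.19. PIK3CA (ENSG00000121879.6, chromosome 3 from 179148114 to 179240093), the catalytic subunit p110-alpha, had 27.6 to 40.5 CPM in MmC-/GDF11- and 29.6 to 37.8 in MmC+/GDF11-. Its log2 fold change was -0.08 (95% interval -0.33 to 0.16, adjusted p = 0.573) without and -0.10 (-0.34 to 0.15, adjusted p = 0.517) with GDF11. PIK3CB (ENSG00000051382.9, chromosome 3 from 138652698 to 138834928), the catalytic subunit p110-beta, had 21.0 to 26.1 CPM in MmC-/GDF11- and 19.6 to 25.8 in MmC+/GDF11-. The corresponding differences were -0.07 (-0.29 to 0.15, adjusted p = 0.636) and -0.17 (-0.39 to 0.05, adjusted p = 0.195). PIK3R1 (ENSG00000145675.15, chromosome 5 from 68215740 to 68301821), which encodes the regulatory subunit p85-alpha, had 30.5 to 51.3 CPM in MmC-/GDF11- and 36.1 to 40.2 in MmC+/GDF11-. Its differences were -0.16 (-0.43 to 0.11, adjusted p = 0.312) and -0.08 (-0.35 to 0.19, adjusted p = 0.634). Without replicate 2 of MmC-/GDF11-, the lowest of its group, PIK3R1 passed the test without GDF11 (-0.28, adjusted p = 0.0327). For PIK3CA, 17.7% of its exonic sequence recurs on chromosome 22 and 19.8% is overlapped by KCNMB3 on the other strand. KCNMB3 had 26 to 116 counts per library, against 2539 to 5285 for PIK3CA.

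**Figure D2:**
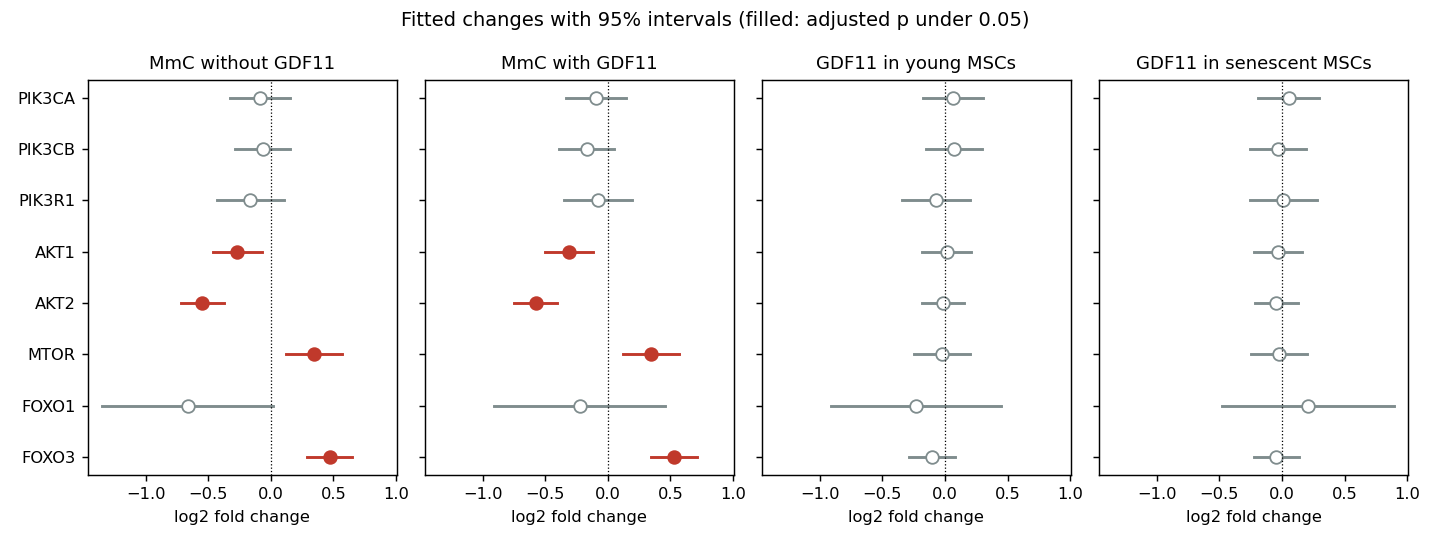
Fitted log2 fold changes (horizontal axes) of the 8 genes with 95% intervals in the 4 pairwise comparisons. Filled points passed an adjusted p of 0.05. AKT1, AKT2, MTOR and FOXO3 are filled in both MmC comparisons, and no gene is filled in either GDF11 comparison, where FOXO1 has the widest intervals.

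Replicate number 1 stood apart from the others in every group. On the second principal component, which held 12.2% of the variance, its 4 libraries lay between 25.3 and 64.0 and the other 12 between -22.4 and -8.63. The labels give the same batch entry for all 16 libraries. The study names technical batch effects among its limits, without saying which libraries they touch. With the 4 libraries numbered 1 left out, more genes of all kinds passed, 51.7% of 19338 without and 52.6% with GDF11. In that fit AKT1 (log2 fold change -0.34, adjusted p = 0.00763), AKT2 (-0.63, 2.60e-05), MTOR (0.30, 0.0405) and FOXO3 (0.49, 0.000507) all passed without GDF11, and FOXO1 did not (-0.46, 0.0671). With GDF11, AKT1 (-0.34, 0.00756), AKT2 (-0.63, 2.30e-05), MTOR (0.43, 0.00593) and FOXO3 (0.51, 0.000354) passed, and PIK3CB joined them (-0.25, adjusted p = 0.0422). The MSC markers NT5E, THY1, ENG, CD44 and ITGB1 summed to between 4734 and 6426 CPM per library. Summed over 8 markers of other cell types, the level was 16.8 to 30.9 CPM in MmC-/GDF11-, 17.6 to 23.3 in MmC-/GDF11+, 22.9 to 34.5 in MmC+/GDF11- and 22.4 to 32.2 in MmC+/GDF11+. Of these 8 markers 5 passed the filter, and without GDF11 PECAM1 (1.27) and CD14 (0.79) were higher and CDH5 (-1.51) lower after MmC. With GDF11, PECAM1 (1.19), CD14 (0.96) and PTPRC (0.90) were higher and CDH5 (-1.49) lower. HLA-DRA had 0 counts in all libraries, and EPCAM at most 0.0582 CPM. The part of other cells in the values of the pathway genes was not tested, and in bulk RNA a change in the cells present and a change in RNA per cell cannot be told apart.

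The second question of the design was whether GDF11 changed these genes in young or in senescent MSCs. None of the 8 passed the test in either, with or without the replicate number as a block. These comparisons use the same libraries as those of MmC. In young MSCs (MmC-/GDF11+ against MmC-/GDF11-) the log2 fold changes ran from -0.23 for FOXO1 to 0.07 for PIK3CB, with 95% intervals between -0.91 and 0.45 over the 8 genes. In senescent MSCs (MmC+/GDF11+ against MmC+/GDF11-) they ran from -0.05 for AKT2 to 0.21 for FOXO1, with intervals between -0.48 and 0.89. FOXO1 sets those limits.

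Apart from FOXO1, the intervals were narrower. Those of PIK3CA, PIK3CB, PIK3R1 and FOXO3 still reached the size of the change of AKT1 after MmC without GDF11 (-0.27). For AKT1 the 95% interval was -0.18 to 0.21 in young and -0.22 to 0.16 in senescent MSCs, and for AKT2 it was -0.19 to 0.16 and -0.22 to 0.13. The interval of MTOR was -0.25 to 0.20 in both. For FOXO3 the difference in young MSCs was -0.10 (-0.28 to 0.08), the largest of the 7 other genes, and in senescent MSCs -0.05 (-0.22 to 0.13). PIK3CA gave 0.06 (-0.18 to 0.31) and 0.05 (-0.19 to 0.29), PIK3CB 0.07 (-0.15 to 0.29) and -0.03 (-0.25 to 0.19), and PIK3R1 -0.07 (-0.34 to 0.20) and 0.01 (-0.26 to 0.28). The groups with and without GDF11 overlapped for all 8 genes, where 0.89% of all genes did not overlap in young and 0.503% in senescent MSCs.

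The absence of calls was not particular to these genes. Of all genes tested, 0% passed in young MSCs, 0% in senescent MSCs and 0% in the test of whether the effect of GDF11 differed between them (the interaction). At an unadjusted p of 0.05 edgeR's quasi-likelihood test gave 226, 96 and 172 genes. DESeq2 called 1 gene in young MSCs and 0 in the other comparisons, and limma-voom called 0 in all of them. For the interaction the lowest unadjusted p among the 8 genes was 0.349, for FOXO1, whose difference between the effects was 0.44 (95% interval -0.53 to 1.40, adjusted p = 0.99994). The other 7 interactions lay between -0.10 and 0.08. Across 12987 genes with a mean log2 CPM above 0, the fitted effect of GDF11 followed GC content, with Spearman's rho of -0.28 in young and -0.44 in senescent MSCs, where after MmC it was -0.03 in both comparisons. These are correlations across genes of the same libraries and are given as a description. With offsets for GC content and length, none of the 8 passed for GDF11 either.

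The levels of the 8 genes can be compared with each other only per length, here as CPM per kilobase of exon. In MmC-/GDF11- AKT1 was highest at 21.8 ± 2.43 (SD, n = 4), followed by AKT2 at 9.07 ± 0.746, FOXO3 at 5.74 ± 0.522 and MTOR at 4.26 ± 0.641. The PI3K subunits lay lower, at 2.99 ± 0.297 for PIK3CB, 2.60 ± 0.534 for PIK3R1 and 2.12 ± 0.345 for PIK3CA, and FOXO1 was lowest at 0.193 ± 0.0966. The ranges of FOXO3 and MTOR overlapped, as did those of PIK3CB and PIK3R1 and those of PIK3R1 and PIK3CA, and the other neighbours in this order did not overlap. In MmC+/GDF11- FOXO3, at 7.95 ± 0.245, stood above AKT2, at 6.21 ± 0.452, without overlap. The order in both groups depends on the length used. Per length of the longest transcript in MmC-/GDF11-, AKT1, at 28.4 ± 3.17, and AKT2, at 27.5 ± 2.26, overlapped. PIK3R1, at 6.09 ± 1.25, then lay between MTOR, at 6.32 ± 0.952, and FOXO3, at 6.02 ± 0.548, and overlapped with both. Per length of the longest transcript AKT2, at 18.8 ± 1.37, stayed above FOXO3, at 8.35 ± 0.257, in MmC+/GDF11-.

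**Figure D3:**
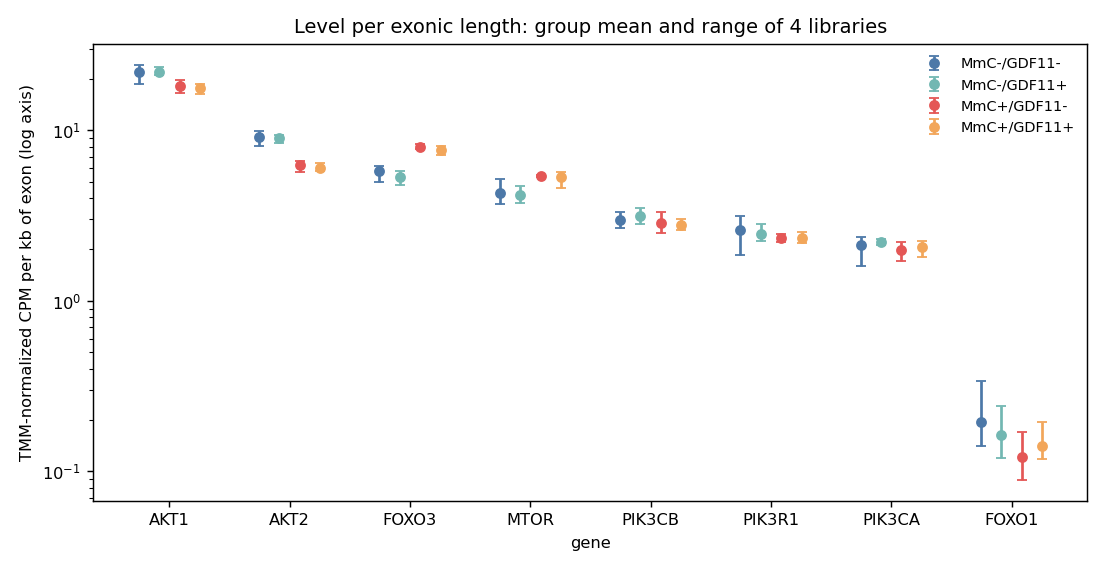
Level per kilobase of exon (TMM-normalized CPM, log axis) of the 8 genes, with the group mean as a point and the lowest and highest of 4 libraries as a bar. AKT1 is highest and FOXO1 lowest in every group, and FOXO3 crosses above AKT2 in the MmC+ groups.

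Around these genes, 101 others of the pathway were listed by role, of which 93 passed the filter. Without GDF11, 24 of them were higher and 20 lower after MmC (47.3%), and with GDF11 22 were higher and 24 lower (49.5%), which is near the share of all genes. None passed for GDF11 in young or in senescent MSCs. The lists were chosen with earlier results of these data known, and some genes stand in more than 1 list, so their counts are a description. The counts per list below stand beside the following shares of all genes. Without GDF11 22.9% were higher and 22.4% lower after MmC, and with GDF11 23.4% and 23.3%. With the libraries numbered 1 left out, 26.2% were higher and 25.6% lower without GDF11, and 26.4% and 26.2% with it.

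Of the growth factor receptors and their adaptors, which recruit PI3K, 6 of 10 were higher and 2 lower in both comparisons. Their median log2 fold change was 0.44 without and 0.47 with GDF11, where that of all genes was -0.01 in both. IRS2, an adaptor of the insulin and IGF receptors, rose from 1.01 ± 0.328 to 2.77 ± 0.458 CPM without GDF11, a log2 fold change of 1.46 (SE 0.207, adjusted p = 4.25e-05). Its relative IRS1 rose by 0.82 (adjusted p = 0.0279), although its libraries ranged from 46.8 to 83.3 CPM in MmC-/GDF11- and from 64.7 to 128 in MmC+/GDF11-. The receptors IGF1R (0.44), INSR (0.54), EGFR (0.44) and FGFR1 (0.74) were the other 4 that rose. PDGFRA, a receptor of platelet-derived growth factor and a stromal marker, fell from 480 ± 52.8 to 274 ± 41.8 CPM (-0.81, SE 0.143, adjusted p = 0.000287), and PDGFRB also fell (-0.68, adjusted p = 0.00112).

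Among the other PI3K subunits 0 of 8 passed without GDF11. PIK3CD, the catalytic subunit best known from leukocytes, had 6.71 to 14.3 CPM in MmC+/GDF11- and 12.9 to 13.5 in MmC-/GDF11-, with a log2 fold change of -0.22 (adjusted p = 0.379). With GDF11 1 of 8 passed, the regulatory subunit PIK3R2 (-1.15, SE 0.277, adjusted p = 0.00312). It had 7 to 37 counts per library, and 76.4% of its exonic sequence is shared on the same strand with a readthrough transcript, ENSG00000268173, which had at most 3 counts. Reads of PIK3R2 in the shared part could have been counted on neither gene. Without the libraries numbered 1, the counts with GDF11 were 1 higher and 2 lower.

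Phosphatases and inhibitors that oppose PI3K and Akt were split, with 2 of 8 higher and 2 lower without GDF11, and 1 higher and 2 lower with it (2 and 2 without the libraries numbered 1). INPP5D, a lipid phosphatase (SHIP1) known mainly from blood cells, rose from 1.69 ± 0.616 to 21.9 ± 6.08 CPM, a log2 fold change of 3.70 (SE 0.279, adjusted p = 1.40e-07), and by 3.87 with GDF11. PTPRC, a pan-leukocyte marker, went from 0.378 ± 0.0891 to 0.583 ± 0.161 CPM without GDF11, which did not pass (0.63, adjusted p = 0.0600), and rose with GDF11 from 0.377 ± 0.122 to 0.706 ± 0.131 CPM (0.90, adjusted p = 0.00989). CD14, a monocyte marker, rose by 0.79 (adjusted p = 0.0299) and by 0.96 (adjusted p = 0.0109). The part of blood cells in the rise of INPP5D was not tested. PHLPP2, a phosphatase of Akt itself, was among those that fell, by 0.36 and by 0.38 on the log2 scale. INPP4B was the other gene that rose without GDF11 (0.46, adjusted p = 0.00787), and with GDF11 it did not pass (0.31, adjusted p = 0.0540).

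Of 8 listed genes that act next to AKT1 and AKT2, 1 was higher and 1 lower in both comparisons. PDPK1, the kinase that phosphorylates Akt in its activation loop, rose from 32.7 ± 4.16 to 47.9 ± 2.57 CPM (0.55, SE 0.0879, adjusted p = 0.000122). BAD, a pro-apoptotic substrate of Akt, fell by 0.36 on the log2 scale (adjusted p = 0.0391) and by 0.51 with GDF11 (adjusted p = 0.00559).

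Of 10 partners of MTOR in its complexes, 1 was higher and 2 lower without GDF11, and 0 higher and 3 lower with it. TELO2, which helps mTOR and related kinases to fold, fell from 58.3 ± 12.4 to 30.96 ± 4.56 CPM (-0.91, SE 0.153, adjusted p = 0.000177), and MLST8, a subunit of both complexes, fell from 55.4 ± 6.48 to 39.7 ± 2.09 (-0.48, SE 0.0848, adjusted p = 0.000279). RPTOR, the subunit that defines mTORC1, rose by 0.21 at an adjusted p of 0.0498 without GDF11 and did not pass with it (0.08, adjusted p = 0.489). MAPKAP1, a subunit of mTORC2, was the additional gene that fell with GDF11 (-0.27, adjusted p = 0.0217). Without the libraries numbered 1 the counts were 0 higher and 5 lower without GDF11, and 0 higher and 4 lower with it, where 25.6% and 26.2% of all genes were lower.

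Genes that feed nutrient and stress signals to mTORC1 gave 3 higher and 5 lower of 22 without GDF11, and 3 higher and 7 lower with it. The 3 that rose were SESN2 (1.43, SE 0.184, adjusted p = 1.85e-05), SESN1 (1.35, SE 0.222, adjusted p = 0.000167) and RRAGD (0.94, SE 0.212, adjusted p = 0.00199). Sestrins restrain mTORC1 and are also known targets of p53, and RRAGD is a Rag GTPase that brings mTORC1 to the lysosome. SESN2 went from 32.8 ± 8.35 to 88.2 ± 11.2 CPM, and RRAGD, at a low level, from 0.727 ± 0.181 to 1.39 ± 0.124. The 5 that fell without GDF11 were TBC1D7 (-0.58), LAMTOR2 (-0.52), LAMTOR4 (-0.53), NPRL2 (-0.45) and NPRL3 (-0.33). TBC1D7 belongs to the TSC complex, the LAMTOR proteins anchor Rag GTPases, and the NPRL proteins belong to the GATOR1 complex, which acts against mTORC1.

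Outputs of mTOR were split, with 3 of 10 higher and 3 lower without GDF11, and 3 higher and 4 lower with it. ATG13, a part of the complex that starts autophagy, rose from 95.4 ± 6.15 to 149 ± 13.1 CPM (0.65, SE 0.0855, adjusted p = 2.22e-05), and ULK1, the kinase of that complex, rose by 0.38 (adjusted p = 0.00646). SGK1, a kinase related to Akt, rose by 1.09 (SE 0.340, adjusted p = 0.0163), with libraries from 54.0 to 88.8 CPM in MmC-/GDF11- and from 59.4 to 186 in MmC+/GDF11-. LPIN1, a phosphatidate phosphatase, fell from 87.6 ± 14.7 to 52.4 ± 4.55 CPM (-0.74, SE 0.139, adjusted p = 0.000471). RPS6KB2, an S6 kinase (-0.47, adjusted p = 0.00733), and EIF4EBP1, a repressor of translation initiation (-0.50, adjusted p = 0.0274), fell as well.

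Genes described as FOXO targets were more often higher than lower after MmC, in a list chosen with earlier results of these data known. SESN1, IRS2 and INSR are among the genes it shares with other lists. Of 24 tested (29 listed), 11 were higher and 5 lower without GDF11, with a median log2 fold change of 0.37. With GDF11 11 were higher and 4 lower, with a median of 0.51, where the median of all genes was -0.01. Of all genes, 22.9% were higher and 22.4% lower without GDF11, and 23.4% and 23.3% with it. Without the libraries numbered 1, 12 of 25 were higher and 5 lower without GDF11, and 13 higher and 5 lower with it, where 26.2% and 26.4% of all genes were higher. PDK4, which holds back pyruvate oxidation, had the largest change (3.78, SE 0.792, adjusted p = 0.00131), from 0.0910 to 0.262 CPM in MmC-/GDF11- and from 0.375 to 5.50 in MmC+/GDF11-, so that single libraries differed widely. FBXO32 (atrogin-1), a ubiquitin ligase of muscle wasting, rose from 9.29 ± 3.02 to 70.8 ± 22.2 CPM (2.93, SE 0.298, adjusted p = 2.76e-06). KLF2, a transcription factor of the endothelium and of quiescent lymphocytes, fell from 31.5 ± 10.5 to 7.13 ± 3.12 CPM (-2.14, SE 0.391, adjusted p = 0.000459).

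The autophagy genes GABARAPL1 (1.27) and MAP1LC3B (0.89) and the pro-apoptotic gene BCL2L11 (1.55) were also among those that rose without GDF11. So were GADD45A (1.41) and SESN1, both also targets of p53, and IRS2 and INSR, named above among the adaptors and receptors. CDKN1B, the cell cycle inhibitor p27 and the textbook target of FOXO factors, fell from 47.5 ± 1.88 to 31.7 ± 2.82 CPM (-0.58, SE 0.0860, adjusted p = 6.06e-05), and the antioxidant enzyme CAT fell by 0.36 on the log2 scale. RBL2 and S1PR1 were the remaining genes that fell, by 0.31 and by 0.68. FOXO4, the other FOXO gene with enough counts, had 10.3 ± 2.65 CPM in MmC-/GDF11-, against 11.5 ± 1.596 in MmC+/GDF11-, and did not pass without GDF11 (0.16, adjusted p = 0.443) or with it (0.30, adjusted p = 0.126).

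**Figure D4:**
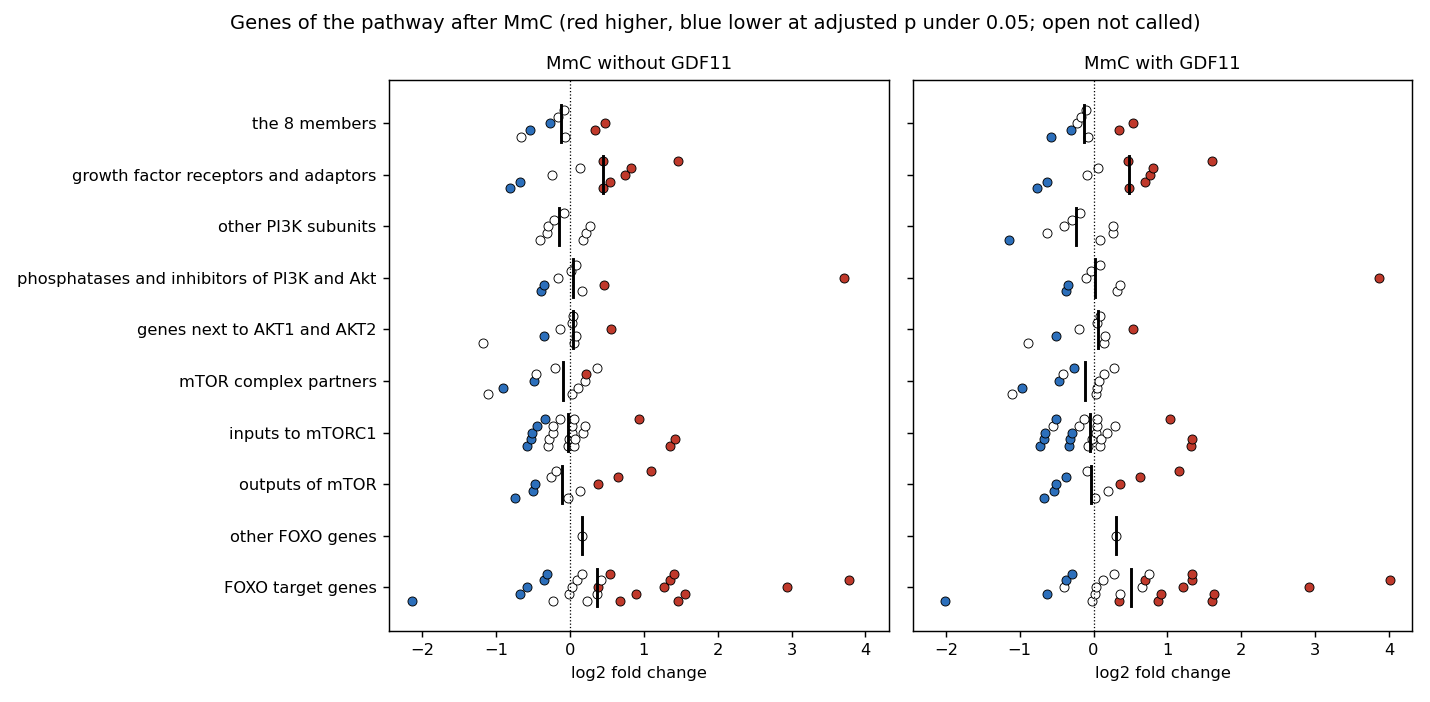
Log2 fold changes after MmC (horizontal axes) of the 8 genes and of 9 lists of pathway genes, one point per gene, with the list's median as a bar. Red points passed the test higher, blue points lower and open points not. INPP5D and PDK4 lie near 4, KLF2 near -2, and the receptor and FOXO target lists have medians above 0 in both panels.

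Over the 16 libraries, the genes whose log2 CPM followed each member most closely were taken from 10961 protein-coding genes, with Pearson's r as the measure. For AKT2 they were ADISSP (r = 0.993) and ME3 (0.991), and for FOXO3 ATP2A2 (0.980) and CHST11 (0.974). AKT1 was most like SYDE1 (0.977) and MAP7D1 (0.971), and MTOR most like C2CD3 (0.967) and E2F7 (0.955). PIK3R1 had NID1 (0.954) and MYCBP2 (0.943), PIK3CA had TASOR (0.922), FOXO1 had ETV6 (0.913) and ZNF652 (0.910), and PIK3CB had MACIR (0.882) and ARHGEF7 (0.851). For the 4 genes that changed after MmC, the libraries share that difference between groups, and for FOXO1 they share the high replicate 1, so these values describe the pattern over these libraries only.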

How the data were processed

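RNA of 16 libraries was compared as 4 groups of 4 biological replicates, taken from the sample labels. The authors aligned reads to hg38 with HISAT2 2.2.1, counted them on GENCODE V38 with featureCounts 2.0.1 and deposited raw read counts per gene, without normalization. The strand setting and the treatment of reads with several alignments, or of reads over several genes, are not given in the sources used here. Totals were between 71275337 and 144204979 counts per library.

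They were fitted here with edgeR 4.0.16 (R 4.3.3) after filterByExpr (minimum count 10, minimum total 15), TMM scaling and the robust quasi-likelihood test, with 1 mean per group over all 16 libraries and Benjamini-Hochberg adjustment over 19103 genes at 0.05. Standard errors and 95% intervals come from that fit. No deposited column was left unmapped. Gene positions, lengths and overlaps came from GENCODE release 44, where 186 identifiers had no match, among them that of SOD2, a listed FOXO target. The steps were tested on simulated counts.

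Same-numbered libraries deviated together from their group means, at a lowest correlation of 0.113 in the comparison of MmC without GDF11 and 0.448 in that of GDF11 among senescent MSCs, and there the numbers were taken to pair libraries. The lowest value was 0.0293 for MmC with GDF11, and 0.0982 where GDF11 was added to young MSCs, which was not taken as pairing. For MmC without GDF11 the pairing is weak at replicate 3 of MmC-/GDF11-. That library correlated at 0.113 with the same number and at 0.134 with a library of another number. The reported tests use no replicate term. Alternatives were RLE and upper-quartile scaling, other filters, only the libraries compared, the number as a block, limma-voom (limma 3.58.1), DESeq2 1.42.0, each library left out and the libraries numbered 1 left out. Summing FOXO3 with FOXO3B, offsets for GC content and length, the block with only the libraries compared, and lists without number 1 were added after seeing the data.

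The 8 genes and all lists were chosen with earlier results of these data known. Genes named are the members, their relatives PIK3CD, PIK3R2 and FOXO4, per list up to 3 genes with the largest change among those passing in both MmC comparisons in the same direction, and the 2 genes most like each member with a mean log2 CPM of at least 1. Other list genes were named after their values were seen. The values of some genes that meet this rule are not reported here, although the counts over the lists include them.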

Additional observations from a re-analysis of the deposited data

Results flagged for a closer look

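In 3 of 32 sets of 4 libraries (8 genes in 4 groups) 1 library lay far from the other 3 by Dixon's test, where chance gives about 1 in 20. PIK3CA had 27.6 CPM in replicate 2 of MmC-/GDF11- and between 38.6 and 40.5 in the others. FOXO1 had 2.01 CPM in replicate 1 of MmC-/GDF11- and between 0.839 and 0.906 in the others. FOXO3 had 63.8 CPM in replicate 2 of MmC+/GDF11- and between 59.8 and 60.5 in the others, a small gap beside the difference between groups.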

How the results depend on the processing

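AKT2, MTOR and FOXO3 passed in both MmC comparisons under all 20 alternatives, and AKT1 kept its direction under all of them. Some values that never passed changed sign. They lay near 0, except those of FOXO1, at -0.22 for MmC with GDF11 and -0.23 for GDF11 in young MSCs. With the libraries numbered 1 left out, PIK3R1 was 0.019 for MmC with GDF11, AKT1 -0.044 for GDF11 in young MSCs, and PIK3CB 0.0074 and MTOR 0.046 in senescent MSCs. With offsets for GC content and length, AKT2 was 0.029 and MTOR 0.027 for GDF11 in young MSCs, and AKT1 0.026, AKT2 0.0077 and MTOR 0.015 in senescent MSCs. Leaving out 1 library gave the following ranges. After MmC without GDF11, PIK3CB lay between -0.13 and 0.0023. With GDF11, PIK3R1 lay between -0.12 and 0.0034 and FOXO1 between -0.41 and 0.036. For GDF11 in young MSCs the ranges were -0.20 to 0.035 for PIK3R1, -0.054 to 0.067 for AKT1, -0.48 to 0.18 for FOXO1, -0.064 to 0.029 for AKT2, -0.047 to 0.12 for PIK3CA and -0.087 to 0.082 for MTOR, and 0 to 1 genes passed in all. In senescent MSCs they were -0.087 to 0.047 for PIK3CB, -0.052 to 0.0505 for MTOR, -0.0089 to 0.12 for PIK3CA, -0.026 to 0.048 for PIK3R1 and -0.065 to 0.015 for AKT1. The cause of these changes was not tested.

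The replicate block added FOXO1 to the calls for MmC without GDF11 (5 of 8 members in place of 4, where all genes called rose from 45.3% to 57.9%) and changed no other call of a member. The block with only the libraries compared called 4 members there, FOXO1 (-0.60, adjusted p = 0.0386) in place of AKT1 (-0.24, adjusted p = 0.0666). For GDF11 in young MSCs 1 gene in all passed with DESeq2 and 1 with that block. Per longest transcript, 3 of 8 genes kept their place in the order of levels in MmC-/GDF11-. Depth limits FOXO1, at 46 to 155 counts per library.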
